A study of Mus musculus with 17 samples.

Results

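Lysosomes are acidic organelles that break down what a cell eats and what it recycles, and macrophages, which clear dead cells and matrix, depend on them. Peptidases, glycosidases and lipid hydrolases do the cutting in the lumen, and a rotary proton pump made of a soluble V1 and a membrane V0 sector keeps the lumen acid. Membrane proteins such as LAMP1 and LAMP2 line the boundary, and other membrane proteins pass the products out. The transcription factors TFEB, TFE3 and MITF bind a short palindromic DNA element found in promoters of many lysosomal genes. Their entry into the nucleus is restrained by phosphorylation through mTORC1, the nutrient-sensing kinase complex on the lysosomal surface, and AKT also phosphorylates TFEB.

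The account covers 44 mouse genes of the lysosome, chosen by gene symbol and followed by level and rank through all 17 libraries. By role they are 11 peptidases, 8 glycosidases, 7 genes of lipid breakdown and export, 6 membrane proteins and channels, 9 proton pump genes and 3 transcription factors. All 44 symbols were found in each of the 4 deposited tables, among 17130 genes in the table of the CXCR4 sort, 19782 in that of the knockout experiments, 18818 in that of the cultures and 26584 in that of the P4 cells.

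The libraries come from RNA sequencing of cells from the mammary glands of virgin mice, in a study of the chemokine CXCL12 and its receptor CXCR4. Macrophages were sorted by F4/80 and CD11b. In the first knockout experiment they carried LysmCre+, Cxcr4fl/fl (2 libraries), and the controls carried LysmCre+ alone (2 libraries). LysM-Cre, driven from the lysozyme 2 locus, deletes in myeloid cells. In the second the mice carried K8Cre+, Cxcl12fl/fl (2 libraries), with K8Cre+ controls (2 libraries), so that Cxcl12 was deleted in luminal epithelium, where keratin 8 is made, and the macrophages themselves were not the target. Wild-type macrophages were further sorted as CXCR4+ (2 libraries) or CXCR4- (1 library). Other wild-type macrophages were cultured in RPMI with serum and given recombinant CXCL12 with the AKT inhibitor GSK690693, the inhibitor alone, CXCL12 alone or neither (1 library each). P4 cells, the basal population enriched for mammary stem cells by Lin-CD24+CD29high, came from K8Cre+, Cxcl12fl/fl and K8Cre+ mice (1 library each). Ages, doses, times and whether repeats came from separate mice are not given in the labels, so p-values speak of these libraries only.

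Library depth, read from the step that 1 read makes, was 8.60 to 37.2 M reads in the knockout table, 23.2 to 28.8 M in the CXCR4 sort and 14.3 to 29.0 M in culture, and is unknown for P4. In the knockout table small noncoding RNA took 2.96% to 6.75% of the signal in libraries of repeat 1 and 15.2% to 19.3% in those of repeat 2, and 8.31% to 37.2% of listed genes were at 0. Cxcr4 stood at 232 and 140 CPM in the Cxcr4 knockout against 819 and 318 CPM in LysM-Cre controls. Cxcl12 was deleted in luminal cells, which were not sequenced, so no library checks that deletion. The 9 macrophage markers summed to 1258 to 5414 CPM in the 11 freshly sorted macrophage libraries and to 818 to 1054 CPM in culture. The 3 endothelial markers summed to 0.703 to 152 CPM in the sorted libraries but to 1291 to 1696 CPM in culture, above the macrophage markers, so the cultured libraries go against their label in part. In P4 the 6 basal epithelial markers summed to 6278 FPKM in the knockout and 4662 FPKM in the control, against 23.1 and 16.4 FPKM for macrophage markers.

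The element that TFEB and its relatives bind has the core CACGTG, often extended to TCACGTG or TCACGTGA. These strings, which are nested in each other, were searched on both strands in RefSeq promoters on GRCm38.p6, from 250 bases before to 50 after each transcription start. Of the 44 genes, 36 had a promoter in the table, 45 promoters in all; Ctsb, Ctsh, Asah1, Npc1, Atp6v0a2, Atp6v0d2, Atp6v1b2 and Atp6v1h had none. The core stood in a promoter of 13 of the 36 genes (36.1%), against 8.09% of all 27025 genes in the table. TCACGTG or its complement stood in 12 of 36 (33.3%), against 4.29% of all genes. The 8-letter palindrome TCACGTGA stood in 7 of 36 (19.4%), against 1.12%, and these were Atp6v0d1, Atp6v1a, Cln3, Ctsa, Ctsd, Gla and Mcoln1. By promoter, 13 of 45 held the core (28.9%), against 7.15% of the 32851 promoters listed. In lists outside the 44, the core stood in 33.3% of 21 lysosomal enzymes and delivery factors with a promoter listed. It stood in 28.6% of 21 genes of nutrient control of TFEB and TFE3. Shares were 22.2% of 9 pump subunits, 18.2% of 11 autophagy genes, 9.09% of 11 membrane proteins and 0% of 6 cathepsin inhibitors. For 38 of the 45 member promoters, bases just after the start were found in a transcript of the gene. A match describes letters in a window and is not a measured binding site.

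The windows below are shown because they hold the densest match in a member promoter, in Lamp1, 2 matches close together, in Mcoln1 and Cln3, and, with Lamp1, the 7 member genes with a match that were higher in CXCR4+ macrophages below, 1 window each. Each is written 5′ to 3′ on the gene's strand, ends before the transcription start, and has the match in capitals; CACGTGA is TCACGTG read on the other strand. Other promoters also held close matches: Gla has 2 in 1 window, which is not shown, and Ctsa has 2, of which that past the start lies outside the printed window. Lamp1 lies at chr8:13159074-13159160 on the plus strand, Mcoln1 at chr8:3500422-3500505 on the plus strand, Cln3 at chr7:126583326-126583410 on the minus strand, Lgmn at chr12:102439111-102439167 on the minus strand, Ctsd at chr7:142387894-142387951 on the minus strand, Atp6v1a at chr16:44139359-44139416 on the minus strand, Naglu at chr11:101069995-101070051 on the plus strand, Ctsl at chr13:64370726-64370770 on the minus strand and Ctsa at chr2:164833735-164833772 on the plus strand, all in GRCm38.p6.
Lamp1: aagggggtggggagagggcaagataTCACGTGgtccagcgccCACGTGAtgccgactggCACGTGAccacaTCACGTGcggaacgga
Mcoln1: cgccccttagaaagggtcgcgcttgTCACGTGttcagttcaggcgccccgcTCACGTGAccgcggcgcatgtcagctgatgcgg
Cln3: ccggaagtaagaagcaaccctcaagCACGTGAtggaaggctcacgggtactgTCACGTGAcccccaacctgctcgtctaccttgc
Lgmn: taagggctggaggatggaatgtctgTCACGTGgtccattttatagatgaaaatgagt
Ctsd: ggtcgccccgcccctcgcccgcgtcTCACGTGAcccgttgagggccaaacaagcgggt
Atp6v1a: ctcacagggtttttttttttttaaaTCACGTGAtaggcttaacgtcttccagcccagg
Naglu: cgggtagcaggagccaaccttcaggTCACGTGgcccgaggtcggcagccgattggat
Ctsl: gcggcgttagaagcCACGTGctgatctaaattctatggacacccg
Ctsa: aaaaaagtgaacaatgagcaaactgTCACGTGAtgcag

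The 13 genes held 21 matches, 11 of them within 100 bases before the start. Lamp1 had 4, centred 58, 42, 25 and 12 bases before the start, and Ctsd, with 2, held both the farthest match from its start (242 bases before it) and 1 at 95 bases. Mcoln1 encodes a calcium channel of the lysosomal membrane. By role the core was found in 4 of 9 peptidases, 4 of 8 glycosidases, 3 of 6 membrane proteins, 2 of 5 pump genes, 0 of 5 lipid genes and 0 of 3 transcription factors with a promoter listed.

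**Figure D1:**
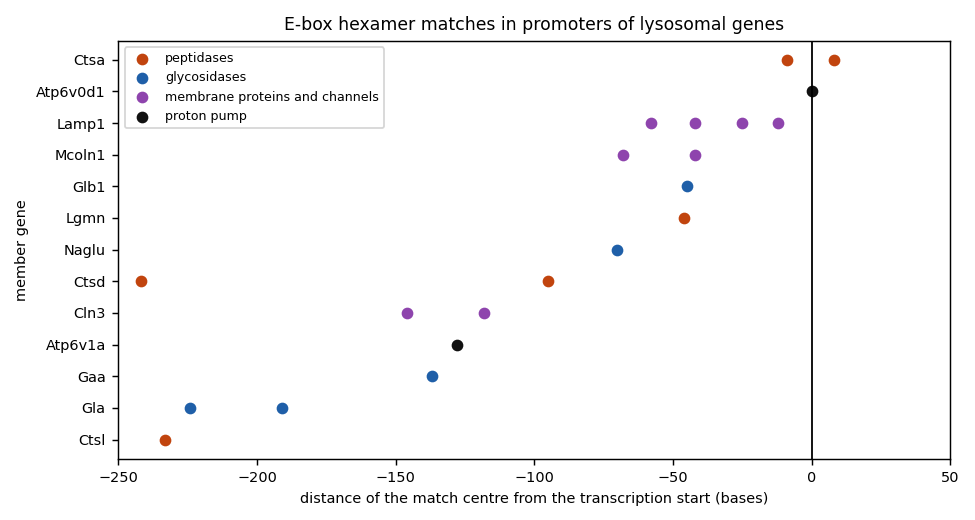
Matches of the 6-letter core, 1 point each, by the distance of the match centre from the transcription start in bases (horizontal axis) for each of the 13 genes that hold one (vertical axis), coloured by role. Of 21 matches, 11 lie within 100 bases before the start, and Lamp1 has 4.

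Most of the 44 genes were well expressed in macrophages. Psap, the precursor of the 4 saposins that help enzymes reach sphingolipids, led each macrophage table per kilobase of exon, at 1039 CPM per kilobase on average in the knockout table (746 to 1410 over 8 libraries). Ctss, the cathepsin that trims the MHC class II invariant chain, was next there at 430 (311 to 558), then Gm2a, which presents the ganglioside GM2 to its hydrolase, at 245 (215 to 293). Lamp1 at 218 (177 to 344), the aspartic protease gene Ctsd at 210 (128 to 316) and the cysteine protease gene Ctsb at 199 (124 to 316) overlapped each other over libraries, so their order is not separated. At the low end were Tfeb at 3.96, the osteoclast collagenase gene Ctsk at 2.00 and Atp6v0d2, a V0 subunit isoform known from osteoclasts and some macrophages, at 1.35 CPM per kilobase.

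Ranked per length among 10428 protein-coding genes present in all tables, the median member stood above 87.5% to 91.7% of genes in the 8 knockout-table libraries, 94.4% and 94.0% in CXCR4+ and 86.2% in CXCR4- macrophages. It stood above 85.1% to 87.3% in culture, and above 65.8% in knockout and 67.4% in control P4 cells. The 44 genes together made up 18207 and 21222 CPM in the 2 CXCR4+ libraries and 10284 CPM in the CXCR4- one, beside 10404 to 15196 CPM in the other 12 macrophage libraries.

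**Figure D2:**
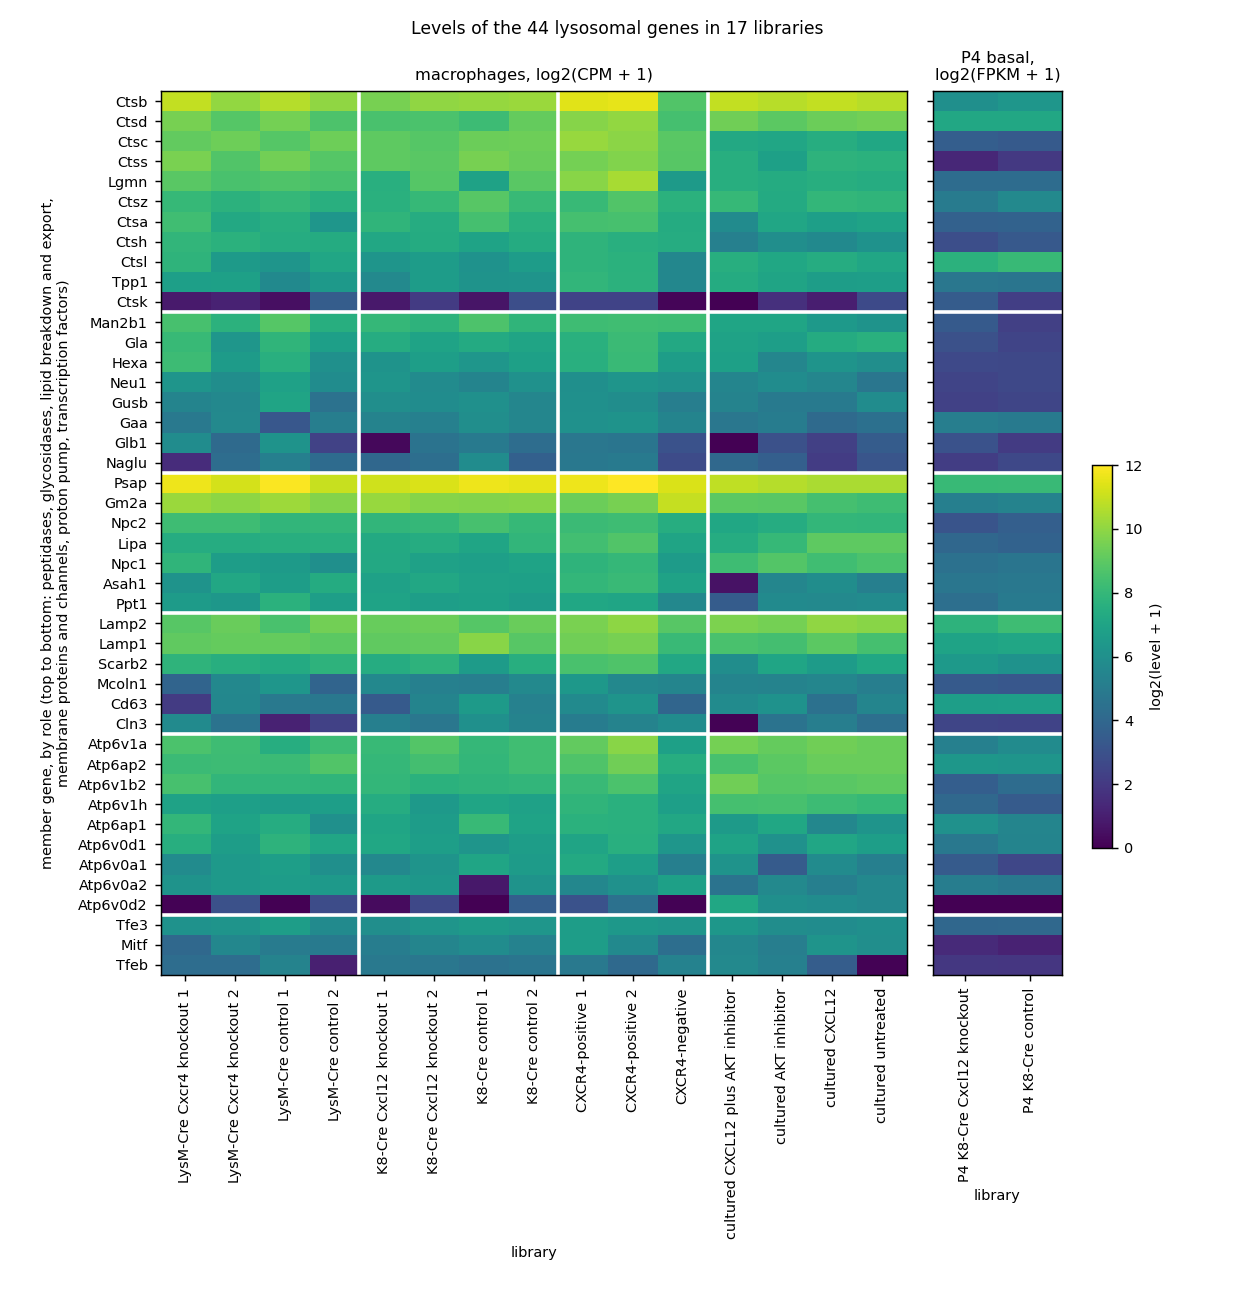
Level of each of the 44 genes (rows, grouped by role with white lines between roles) in each of the 17 libraries (columns, knockout or treated before control), as log2(CPM + 1) for macrophages and log2(FPKM + 1) for P4 on 1 colour scale that does not compare the 2 units. Psap is bright throughout, and Ctsk and Atp6v0d2 are dark in most freshly sorted libraries.

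Over the 8 knockout-table libraries 13 of 44 genes stayed within 2-fold from lowest to highest and 25 within 3-fold, while 8 spread over 10-fold or had a 0. The same counts over all genes were not made, so whether these are unusual is not known. Gm2a was the steadiest, with 887, 942 and 1207 CPM as lowest, median and highest (CV 14.1%). The least steady were the low-level genes Ctsk (CV 122%) and Atp6v0d2 (CV 116%). Next came Glb1, the acid beta-galactosidase gene, which ran from 0.196 CPM in Cxcl12 knockout 1 to 70.6 CPM in LysM-Cre control 1 (CV 89.6%), and Cd63, a tetraspanin of late endosomes, from 3.30 to 92.0 CPM (CV 76.7%). Between the 2 libraries of a group, the share of genes that differed 2-fold or more was 31.8% of members against 54.1% of all genes tested in the Cxcr4 knockout, 31.8% against 53.4% in LysM-Cre controls, 11.4% against 37.9% in the Cxcl12 knockout, 15.9% against 62.5% in K8-Cre controls and 2.27% against 26.2% in CXCR4+ macrophages. The members are also more highly expressed than most genes, and the part of level in these shares was not tested.

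The 2 libraries sorted as CXCR4+ macrophages carried more lysosomal transcripts than the 1 sorted as CXCR4-, across peptidases, pump subunits and membrane proteins. Ctsb had 2833 and 3038 CPM in CXCR4+ against 431 CPM in CXCR4-, and Lgmn, the asparaginyl endopeptidase that processes several cathepsins, had 926 and 1382 CPM in CXCR4+ against 90.7 CPM in CXCR4-. With limma on log2(CPM + 1), 22 of the 44 were higher and 1 lower at a Benjamini-Hochberg adjusted p under 0.05; over all 14411 genes tested 5.06% were higher and 3.4% lower. The difference was above 0 for 40 of 44 members, against 41.3% of all genes, with a median of 1.10 over members (1.07 and 1.24 for the 2 CXCR4+ libraries) and -0.20 over all genes. At least 2-fold higher in both CXCR4+ libraries were 22 members (12.4% of all genes) and at least 2-fold lower in both was 1 (11.1%). Log2 differences here and below are differences of log2(CPM + 1), which understates those of low genes. The filter asked for 1 CPM in 2 of the 3 libraries, so a gene present only in the CXCR4- library could not be tested. The shares of all genes here and below carry that asymmetry. The 22 higher members include Atp6v0d2, which met the filter only through the CXCR4+ side, as did Ctsk, which did not pass.

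Of the 11 peptidases 7 were higher and all 11 lay above 0, with a median of 1.50. Lgmn (chr12:102394084-102439813, minus strand, GRCm38) differed by 3.63 (SE 0.33, adjusted p = 1.91e-25 with limma) and Ctsb (chr14:63122462-63145923, plus strand) by 2.76 (SE 0.35, adjusted p = 5.35e-13 with limma). Tpp1, a tripeptidyl peptidase lost in a childhood neuronal ceroid lipofuscinosis, had 235 and 206 CPM in CXCR4+ against 46.7 CPM in CXCR4-. Ctsl, a broad endopeptidase, had 221 and 199 CPM in CXCR4+ against 45.5 CPM in CXCR4-. In both genes the 2 CXCR4+ libraries were close together and more than 4 times the CXCR4- one. Ctsd had 908 and 1072 CPM in CXCR4+ against 347 CPM in CXCR4-. Ctsc, which activates granule proteases, had 1121 and 969 CPM in CXCR4+ against 490 CPM in CXCR4-, and Ctsa, a carboxypeptidase that also protects beta-galactosidase and neuraminidase, had 347 and 358 CPM in CXCR4+ against 167 CPM in CXCR4-. Ctss at 0.75, Ctsz at 0.76, Ctsh at 0.26 and Ctsk at 2.25 on the log2 scale did not pass; Ctsk had 4.31 and 4.41 CPM in CXCR4+ against 0.129 CPM in CXCR4-, which is 3 reads.

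Of the 9 pump genes 5 were higher and 8 lay above 0, with a median of 1.34. Atp6v1a, the catalytic V1 subunit, had 559 and 927 CPM in CXCR4+ against 112 CPM in CXCR4- (log2 difference 2.67, SE 0.33, adjusted p = 1.10e-13 with limma). Atp6v1b2, the nucleotide-binding B subunit of V1, had 277 and 387 CPM in CXCR4+ against 129 CPM in CXCR4-. Atp6v0a1, a V0 subunit that steers where the pump goes, had 153 and 104 CPM in CXCR4+ against 35.0 CPM in CXCR4-. Atp6ap2, an accessory subunit, had 414 and 674 CPM in CXCR4+ against 176 CPM in CXCR4-, and Atp6v0d2 had 7.08 and 21.0 CPM in CXCR4+ against 0.0431 CPM in CXCR4-, which is 1 read. Atp6v0d2 is among the 5 pump genes higher but met the filter only through the CXCR4+ libraries, so its call adds no support. The isoforms of the a subunit lay on opposite sides, since Atp6v0a2 had 46.7 and 66.4 CPM in CXCR4+ against 110 CPM in CXCR4- and did not pass (log2 difference -0.97, SE 0.41, adjusted p = 0.137 with limma). Atp6v0d1, the widespread isoform of the d subunit, differed by 1.01, the V1 subunit gene Atp6v1h by 0.98 and the accessory gene Atp6ap1 by 0.44; none of these passed.

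The lipid genes divided. Lipa, the acid lipase for cholesteryl esters and triglycerides, had 331 and 428 CPM in CXCR4+ against 130 CPM in CXCR4-. Npc1, the membrane partner in cholesterol export, had 224 and 253 CPM in CXCR4+ against 94.8 CPM in CXCR4-. Asah1, acid ceramidase, and Ppt1, which removes fatty acyl groups from proteins, were also higher, by 1.11 and 1.51 on the log2 scale. Gm2a (chr11:55098115-55113029, plus strand) was the 1 member that was lower, with 640 and 739 CPM in CXCR4+ against 1969 CPM in CXCR4- (log2 difference -1.52, SE 0.34, adjusted p = 0.000238 with limma). Hexa, whose product needs the GM2 activator for its ganglioside substrate, was higher, with 189 and 278 CPM in CXCR4+ against 102 CPM in CXCR4-. Psap, with 3352 and 4007 CPM in CXCR4+ against 2547 CPM in CXCR4-, did not pass (0.52, 95% interval -0.23 to 1.28), nor did Npc2, the soluble carrier of cholesterol in the lumen (log2 difference 0.77).

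Among the other glycosidases Naglu, which acts on heparan sulfate, was higher, with 27.1 and 28.4 CPM in CXCR4+ against 5.78 CPM in CXCR4-; Man2b1, the acid alpha-mannosidase gene, was level at 308 and 318 CPM in CXCR4+ and 312 CPM in CXCR4- (log2 difference 0.00, 95% interval -0.65 to 0.66). The other glycosidases, which also did not pass, differed by 1.66 for Glb1, 0.83 for the beta-glucuronidase gene Gusb, 0.69 for the glycogen-degrading Gaa, 0.64 for Gla and 0.06 for the sialidase gene Neu1. Of the membrane proteins Lamp1 (680 and 741 CPM in CXCR4+ against 276 CPM in CXCR4-), Cd63 (53.2 and 72.4 against 14.0 CPM) and Scarb2, which carries glucocerebrosidase to lysosomes (374 and 420 against 144 CPM), were higher. Cln3, a lysosomal membrane protein lost in juvenile neuronal ceroid lipofuscinosis, had 31.6 and 39.9 CPM in CXCR4+ against 55.6 CPM in CXCR4- and did not pass, nor did Lamp2 (log2 difference 0.91) and Mcoln1 (0.55). Of the transcription factors Mitf was higher, with 102 and 50.6 CPM in CXCR4+ against 18.9 CPM in CXCR4- (log2 difference 1.87, SE 0.46, adjusted p = 0.00112 with limma), while Tfeb differed by -0.83 (SE 0.56) and Tfe3 by 0.30 (SE 0.39) and neither passed.

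**Figure D3:**
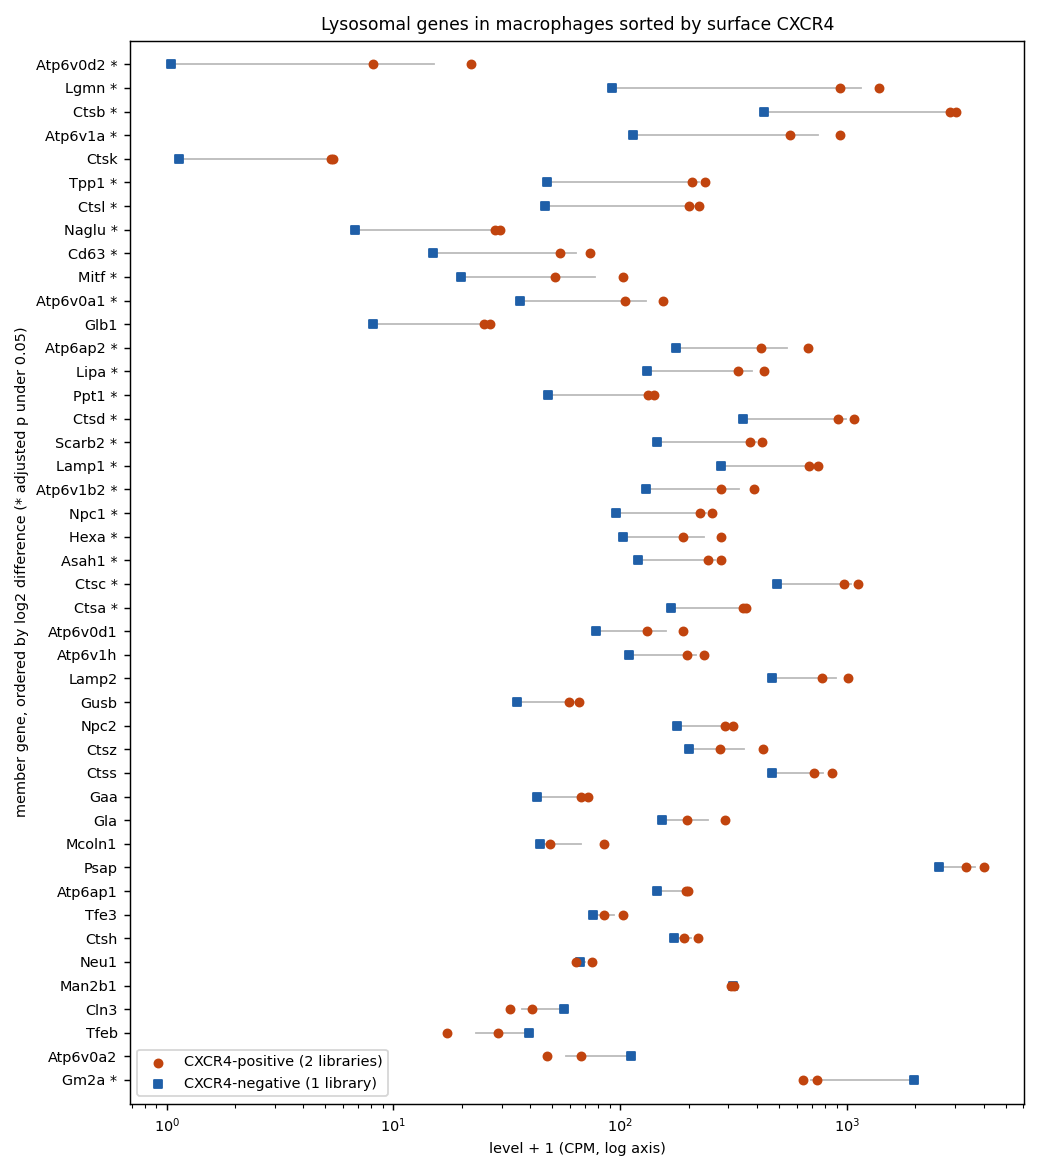
Level plus 1 in CPM on a log axis (horizontal) of each of the 44 genes (vertical, ordered by log2 difference) in the 2 CXCR4+ libraries (red circles) and the CXCR4- library (blue squares); grey lines join the CXCR4+ mean to the CXCR4- value, and stars mark an adjusted p under 0.05. The points of Lgmn, Ctsb and Atp6v1a lie far apart, and Gm2a at the bottom lies the other way.

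The 8 macrophage libraries that were not sorted by CXCR4 give a second yardstick, with the caution that the tables were normalized separately. For 13 members both CXCR4+ libraries lay above all 8 of them (4.49% of 13895 genes), and for 13 members the CXCR4- library lay below all 8 (4.88%). Both held for 5 members, Atp6v1a, Ctsb, Lgmn, Lipa and Tpp1 (0.849% of genes). Ctsk is among the 13 whose CXCR4- library lay below all 8, at 0.129 CPM. It met the filter of the sort only through the CXCR4+ libraries, so its place adds no support. The sorted libraries are those of the comparison above, so the yardstick is not independent of it. Ctsb, for example, spanned 749 to 1911 CPM in the 8 libraries, and Lgmn 120 to 489 CPM. Gm2a lay the other way on both sides, with 887 to 1207 CPM in the 8. It was the only member with both CXCR4+ libraries below all 8 (3.5% of genes), and with Atp6v0a2 made up the 2 whose CXCR4- library lay above all 8 (9.65%).

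Among lysosomal enzymes and membrane proteins outside the 44, more genes were higher than lower in CXCR4+ macrophages. Of 31 other lysosomal enzymes and delivery factors tested 10 were higher and 2 lower, beside the 5.06% and 3.4% of all genes; Pla2g15, a lysosomal phospholipase A2, had 170 CPM in each CXCR4+ library against 10.1 CPM in CXCR4-, while Sort1, a sorting receptor, had 51.4 and 54.5 CPM in CXCR4+ against 174 CPM in CXCR4-. Of 14 other lysosomal membrane proteins 6 were higher and 0 lower, including Tpcn1, a calcium and sodium channel, with 83.8 and 41.3 CPM in CXCR4+ against 7.93 CPM in CXCR4-. Of 10 other pump subunits tested 2 were higher, of 15 autophagy genes 2, and of 3 cysteine cathepsin inhibitors 2. Of 22 genes of nutrient control of TFEB and TFE3 tested 5 were higher and 1 lower, with 12 above 0 and a median of 0.20; Fnip2, a partner of folliculin, had 380 and 737 CPM in CXCR4+ against 109 CPM in CXCR4-.

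Of members with the core in a promoter, 7 of 13 were higher in CXCR4+ (median log2 difference 1.36), of those without it 10 of 23 were higher and 1 lower (median 0.91), and 5 of the 8 with no promoter listed were higher (median 1.22). Those 5 include Atp6v0d2, which met the filter only through the CXCR4+ libraries, so its call adds no support. Ctsk, which is in the median of those without the core, met the filter in the same way. No test was made of the split by promoter.

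Several measures moved with the sort. The 9 macrophage markers summed to 4925 and 5414 CPM in CXCR4+ and 1438 CPM in CXCR4-, with none at 0; 8 of the 9 were higher at an adjusted p under 0.05 with limma, while Itgam, which encodes CD11b, had 285 and 330 CPM in CXCR4+ and 305 CPM in CXCR4-. The 7 dendritic cell markers summed to 474 and 534 CPM in CXCR4+ and 1552 CPM in CXCR4-, and the 5 monocyte markers to 618 and 658 CPM in CXCR4+ and 1045 CPM in CXCR4-. In the CXCR4- library the dendritic cell sum lay above the macrophage sum, so that library goes against its label in part. Cxcl12 knockout 1 had the same order, with 1506 CPM for dendritic cell and 1258 CPM for macrophage markers. The 5 fibroblast markers summed to 185 and 430 CPM in CXCR4+ and 90.2 CPM in CXCR4-, with 3 of 5 higher and all 5 above 0. The 7 eosinophil and neutrophil markers summed to 85.6 and 96.0 CPM in CXCR4+ and 151 CPM in CXCR4-, but 3 of the 5 tested lay above 0 and 1 was lower. Of the 3 mast cell markers the proteases Cpa3 (17.8 and 14.96 CPM in CXCR4+ against 0.172 CPM in CXCR4-) and Mcpt4 (13.1 and 10.5 against 0.259 CPM) were higher, and the receptor Kit was lower (10.7 and 21.6 against 126 CPM). Their part in the lysosomal difference was not tested; in bulk RNA a different mix of cells and a different level per cell cannot be told apart. Cxcr4 RNA had 632 and 875 CPM in CXCR4+ and 772 CPM in CXCR4-, so it did not follow the surface sort. The CXCR4- side is 1 library, assumed in the fit to vary like the CXCR4+ ones, and with 1 residual degree of freedom and an infinite prior each gene's spread comes from the trend over all genes: without that trend, or without the filter on low values, 0 genes passed.

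Deleting Cxcr4 in myeloid cells left the 44 genes without a call. With limma 0 of 44 passed an adjusted p under 0.05, against 1 of 17275 genes (0.00579%), which was Lyz2, at 67.4 and 51.7 CPM in the knockout against 10226 and 2780 CPM in LysM-Cre controls. Lyz2 is the locus that holds LysM-Cre, and the labels do not give the number of Cre copies in either group. At an unadjusted p under 0.05 stood 1 member, Cln3 (chr7:126571207-126585817, minus strand), beside 3.33% of all genes. It had 52.6 and 22.8 CPM in the knockout against 1.20 and 4.02 CPM in LysM-Cre controls, with no overlap (log2 change 3.42, SE 1.18, adjusted p = 1.00 with limma). K8-Cre controls had 63.9 and 39.9 CPM and wild-type CXCR4-sorted macrophages 31.6 to 55.6 CPM, so among freshly sorted macrophages the LysM-Cre controls were the low libraries. The share of all genes with no overlap between knockout and control was not counted.

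The median log2 change of the 44 was 0.09 (0.07 in repeat 1 and 0.17 in repeat 2), against 0.14 over all genes, and 27 of 44 lay above 0 (56.9% of all genes). By role the medians were 0.14 for peptidases, 0.16 for the pump, 0.06 for membrane proteins, 0.00 for lipid genes, -0.07 for transcription factors and -0.12 for glycosidases. Ctsb had 1911 and 1054 CPM in the knockout against 1606 and 1027 CPM in controls, and Lgmn had 486 and 372 CPM in the knockout against 410 and 363 CPM in controls; in both genes the groups overlapped. The log2 change was 0.14 (95% interval -0.66 to 0.95) for Ctsb and 0.14 (95% interval -0.88 to 1.16) for Lgmn.

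The repeats often went apart. Tfeb changed by -1.09 in repeat 1 and 3.22 in repeat 2, with 18.6 and 18.5 CPM in the knockout against 40.7 and 1.09 CPM in controls. Naglu had 1.90 and 18.6 CPM in the knockout against 34.7 and 17.3 CPM in controls. Above 0 in both repeats were 17 members, below 0 in both 6, against 26.6% and 16.9% of all genes.

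Deleting Cxcl12 in luminal cells also gave no call among the 44 (0 of 44, with 0 of 17275 genes, 0%, passing by limma and 2.84% at an unadjusted p under 0.05). The 1 member at an unadjusted p under 0.05 was Atp6v0a2 (chr5:124628576-124724455, plus strand), with 93.3 and 81.4 CPM in the knockout against 0.698 and 70.9 CPM in K8-Cre controls. The change was 5.80 in repeat 1 and 0.20 in repeat 2, and that of repeat 1 is taken against K8-Cre control 1, the shallowest library. Without K8-Cre control 2, 151 genes passed and Atp6v0a2 was the 1 member among them, at 5.70 (SE 0.81, adjusted p = 0.00441 with limma). The median log2 change of members was -0.12 (0.04 and -0.05 in the repeats), against 0.36 over all genes, and 18 of 44 lay above 0 (64.1% of all genes).

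Among the highly expressed members Ctsb had 749 and 1037 CPM in the Cxcl12 knockout against 1101 and 1156 CPM in K8-Cre controls, and Psap had 2269 and 2528 CPM in the knockout against 3364 and 3020 CPM in controls. In both genes the knockout libraries lay below both controls, and neither passed (log2 change -0.36, SE 0.41, for Ctsb and -0.41, SE 0.37, for Psap). The share of all genes with such an order was not counted, so whether it is unusual is not known. Glb1 and Cd63 had the lowest changes in repeat 1, -4.66 and -3.12, but changed by 0.32 and 0.15 in repeat 2. Macrophage markers summed to 1258 and 1953 CPM in the Cxcl12 knockout and 2139 and 2533 CPM in K8-Cre controls; their part in these values was not tested.

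The difference between the knockout effects, Cxcr4 minus Cxcl12, passed for 0 of 44 members (1 of 17275 genes, 0.00579%). Unadjusted, 2 members stood under 0.05 (2.48% of all genes): Cln3 at 4.14 (SE 1.67) and Atp6v0a2 at -3.28 (SE 1.26). The median over members was 0.31, against -0.22 over all genes, and 29 of 44 lay above 0 (43.7% of all genes). Of the lists outside the 44, none had a member past the threshold with limma in either knockout; at an unadjusted p under 0.05 stood 1 of 32 enzymes and delivery factors and 1 of 14 membrane proteins in the Cxcr4 knockout, and 4 of 32 enzymes and 2 of 23 nutrient-control genes in the Cxcl12 knockout.

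**Figure D4:**
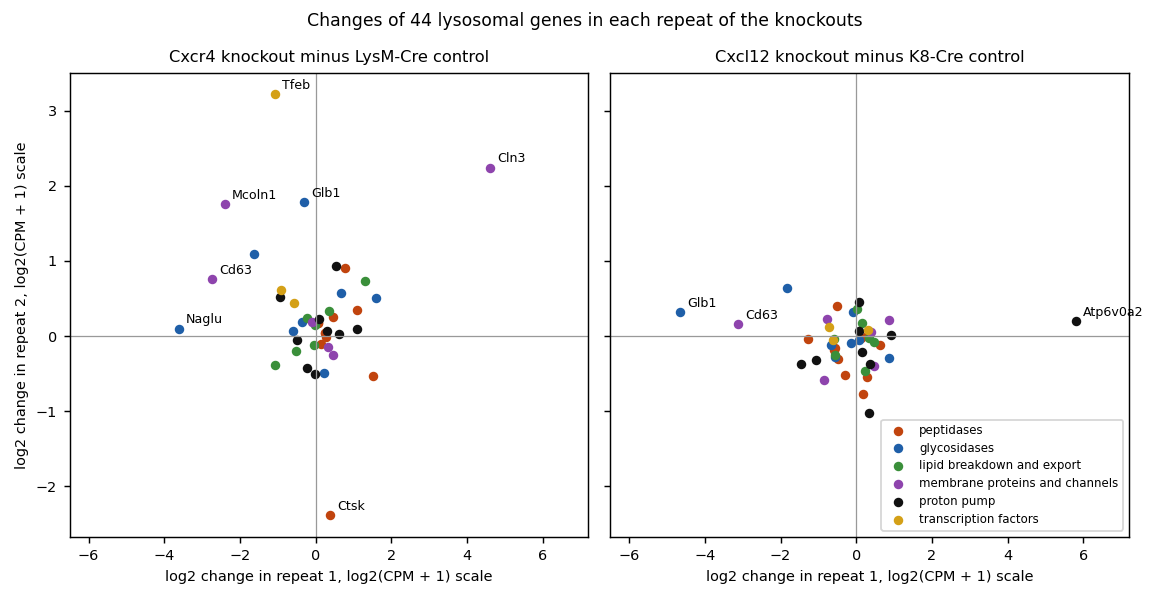
Log2 change of each of the 44 genes in repeat 1 (horizontal) and repeat 2 (vertical), knockout minus its Cre control, for Cxcr4 (left) and Cxcl12 (right), coloured by role; genes far from 0 are named. Most points crowd around 0, Cln3 stands at 4.61 and 2.24 in the left panel, and Atp6v0a2 stands at 5.80 and 0.20 in the right.

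In culture the AKT inhibitor moved no member past the threshold (0 of 44 with limma, against 0.0866% of 13864 genes, all lower). At an unadjusted p under 0.05 stood 7 members, beside 10.2% of all genes. Each treatment has 1 library, and the departure from additivity of inhibitor and CXCL12 stands in for the spread. As given above, endothelial markers exceeded macrophage markers in all 4 cultured libraries, so the values describe the mixture.

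Lipa came nearest, with 173 CPM under CXCL12 plus inhibitor and 264 CPM under the inhibitor against 527 CPM under CXCL12 and 520 CPM untreated. The 2 libraries with inhibitor lay below the 2 without it (log2 change -1.29, SE 0.25, adjusted p = 0.0916 with limma), and Lipa passed under median-ratio scaling (-1.25, adjusted p = 0.0217 with limma). Tfeb had 49.8 CPM under CXCL12 plus inhibitor and 36.0 CPM under the inhibitor against 10.5 CPM under CXCL12 and 0.0473 CPM untreated, which is 1 read. Its groups did not overlap either (log2 change 3.65, SE 1.48, adjusted p = 0.488 with limma), and its 2 relatives did not share the pattern: Tfe3 had 80.8 and 58.4 CPM with inhibitor against 55.6 and 62.3 CPM without it, and Mitf had 46.5 and 33.9 CPM with inhibitor against 72.9 and 60.3 CPM without it. How many of all genes lacked overlap between libraries with and without inhibitor was not counted.

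The other 5 were smaller. Gm2a had 509 and 492 CPM with inhibitor against 347 and 308 CPM without it, and the pump accessory gene Atp6ap1 had 93.4 and 143 CPM with inhibitor against 45.8 and 73.6 CPM without it. Npc2 changed by -0.63, the alpha-galactosidase gene Gla by -0.67 and Atp6ap2 by -0.49. Over all members the median was -0.16, against -0.13 over all genes, and 19 of 44 lay above 0 (44.3% of all genes). Of the other lists, 0 members passed with limma.

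CXCL12 in culture moved 0 of 13864 genes past the threshold with limma, and 6.03% stood at an unadjusted p under 0.05. Among members 2 did. Atp6v0a1 had 71.1 CPM under CXCL12 plus inhibitor and 54.7 CPM under CXCL12 against 9.91 CPM under the inhibitor and 35.2 CPM untreated. Scarb2 had 58.1 CPM under CXCL12 plus inhibitor and 96.1 CPM under CXCL12 against 131 CPM under the inhibitor and 141 CPM untreated. The median change over members was 0.11, against -0.14 over all genes, and 25 of 44 lay above 0 (43.1%).

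The library with both agents stood apart for a few members. There Asah1 had 0.499 CPM against 35.2 to 58.1 CPM in the other 3 cultures, Cln3 had 0.0624 CPM against 19.9 to 33.7 CPM, and Ppt1 had 10.1 CPM against 49.2 to 53.7 CPM. Atp6v0d2 went the other way, with 141 CPM against 47.6 to 61.4 CPM. That library also had the largest share of genes at 0 among the cultures, at 31.0%, against 12.5% to 19.8% in the others.

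**Figure D5:**
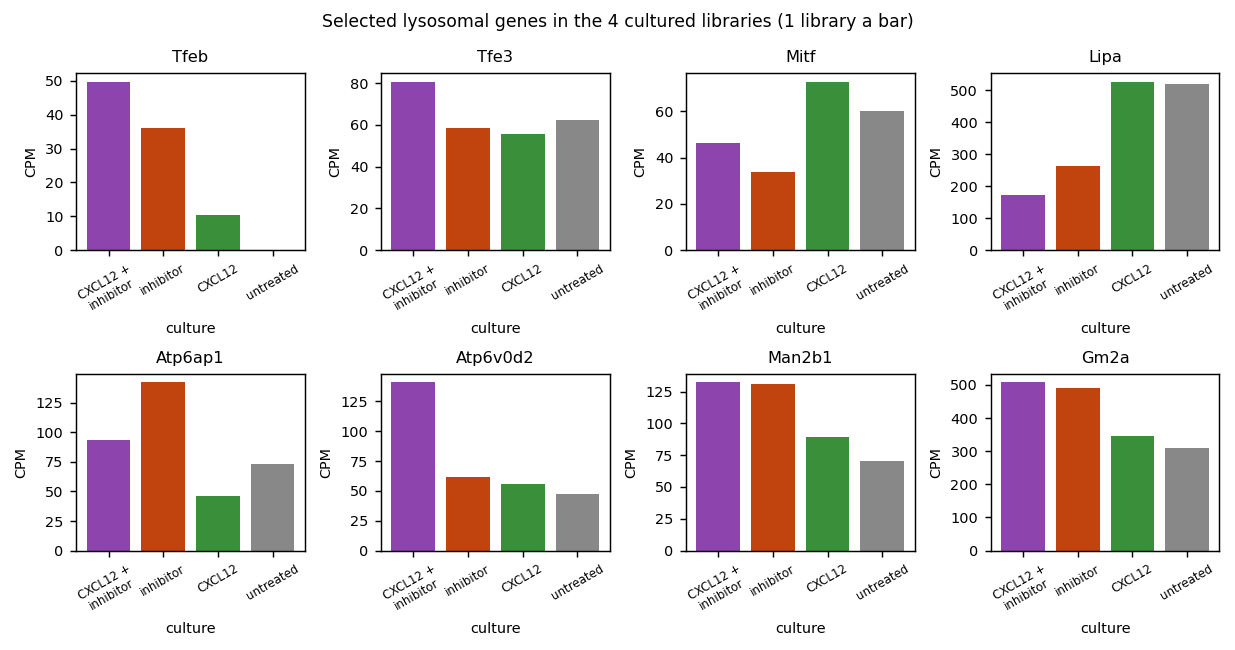
Level in CPM (vertical axes from 0) of 8 members in the 4 cultured libraries, 1 bar a library: CXCL12 plus inhibitor, inhibitor, CXCL12 and untreated. Both bars with inhibitor are above both without it for Tfeb, Atp6ap1, Atp6v0d2, Man2b1 and Gm2a, and below for Lipa and Mitf. This describes the order of the bars only, since no member passed the adjusted threshold for the inhibitor with limma. The share of all members or of all genes with such an order was not counted, and whether it is unusual was not tested.

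Set beside the 11 freshly sorted macrophage libraries, the 4 cultured ones differed in which lysosomal genes stood high; the tables were normalized separately, so this is a description. All 4 lay above all 11 for Atp6v0d2, Atp6v1b2, Atp6v1h and Npc1 (4 of 44 members, against 7.04% of 14254 genes, a similar share). The first 3 are pump subunits, but the pump genes did not move together, since the others overlapped. Their median in culture was lower for Atp6ap1, Atp6v0a1, Atp6v0a2 and Atp6v0d1 and higher for Atp6ap2 and Atp6v1a. Atp6v0d2 had 47.6 to 141 CPM in culture, against 0 to 21.0 CPM in sorted cells, and Atp6v1b2, which had 451 to 673 CPM in culture, had 129 to 387 CPM in sorted cells. All 4 lay below all 11 for 7 members, Ctsc, Ctsh, Ctss, Man2b1, Asah1, Psap and Gm2a (3.94% of genes). Ctss had 111 to 217 CPM in culture, against 423 to 856 CPM in sorted cells. Markers of other cells moved with this contrast too. Besides the endothelial and macrophage sums given above, the 5 monocyte markers summed to 121 to 202 CPM in culture, against 618 to 1382 CPM in sorted cells. The 4 adipocyte markers summed to 347 to 432 CPM in culture, against 0.707 to 130 CPM in sorted cells, where the sort table lists only 1 of the 4. Their part was not tested.

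In P4 basal cells Psap had the highest mean, at 269 FPKM in the knockout and 281 FPKM in the control. Next came Lamp2, with 217 FPKM in the knockout and 305 FPKM in the control, and Ctsl, with 211 FPKM in the knockout and 269 FPKM in the control, while Ctss, at 1.50 FPKM in the knockout and 2.94 FPKM in the control, was near the bottom and Atp6v0d2 was listed at 0 in both. After luminal deletion of Cxcl12, 2 of 43 members tested were past 2-fold, both higher, and 0 lower, against 13.5% of 13146 genes higher and 9.68% lower. They were Ctsk, with 10.3 FPKM in the knockout against 3.76 FPKM in the control, and Man2b1, with 9.61 FPKM in the knockout against 3.82 FPKM in the control. With 1 library a group there is no test. The top 5 entries held 83.7% of the summed FPKM in the knockout and 84.8% in the control. The highest entry stood at 6.83e+06 FPKM in the knockout library and 1.39e+07 FPKM in the control library. Their part in the member levels was not tested. The median log2 difference was -0.04 over members and 0.03 over all genes, and 21 of 43 lay above 0 (51.5% of all genes).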

How the data were processed

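Per the labels, total RNA was isolated with RNeasy kits, depleted of ribosomal RNA and made into libraries with PrepX reagents. STAR 2.7.8a, Partek and a human genome build appear in the submitters' processing notes, although gene symbols and positions are mouse; how reads were counted is not given in the sources used here. The authors deposited log2 values for macrophages, which act as log2(CPM + 0.0001), since undoing that log gives the same CPM total in each library. Of values up to 50 reads, 74.3% to 89.9% were whole reads (tolerance 0.05), so counts were not recovered and no count test was run. The P4 table was deposited as FPKM, with depth unknown. Gene starts equalled those of GENCODE M21 (GRCm38) for 99.5% of genes in the knockout and sort tables but 2.15% in the culture table. Of entries sharing a symbol, that with the highest mean was kept (91 others dropped in culture, 27 in P4).

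Comparisons used limma 3.58.1 (R 4.3.3) on log2(CPM + 1) with a mean-variance trend, two-sided, adjusting by Benjamini-Hochberg over every gene that reached 1 CPM in 2 libraries; all 44 members did so in each macrophage table. The knockout model had 4 group means over 8 libraries (4 residual degrees of freedom, 97.3 prior), the sort model 1 residual degree of freedom over 3 libraries (prior estimated as infinite, so that each gene's variance is the trend's), and the culture model, additive in both agents, 1 over 4 (13.3 prior). P4 was described by ratios of FPKM + 1 for genes at 1 FPKM or more in the higher library. The fits were tested on simulated data. Named per comparison were members that passed, the 8 of highest mean level and the 5 highest and 5 lowest changes; further members were named after their values were seen. The members and lists were chosen with earlier results of these data known. Alternatives were another pseudocount, filter, scaling or trend setting, a replicate block, and leaving out each library. Promoters came from RefSeq on GRCm38.p6, and figures were drawn with matplotlib 3.10.9. The values of 1 gene outside the 44 are not reported here.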

Additional observations from a re-analysis of the deposited data

How the results depend on the processing

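No named member that passed the threshold changed sign under any alternative run. In the CXCR4 sort, the count of members higher was 22 to 25 under a pseudocount of 0.1, median-ratio scaling and quantile normalization, and fell to 0, as did the 1 lower and the 1219 genes, without the mean-variance trend or without the filter on low values. The median of members was 1.26 under median-ratio scaling, where that of all genes was -0.06 in place of -0.20, and 1.04 to 1.16 without either CXCR4+ library. In the Cxcr4 knockout, 8 genes passed without the filter and 0 without the trend; the members' median was -0.016 under median-ratio scaling and -0.093 to 0.26 without 1 library, where 1 to 150 genes passed (150 without LysM-Cre control 2) and members stayed at 0. In the Cxcl12 knockout, the median was -0.33 under median-ratio scaling, where that of all genes was 0.22 in place of 0.36, and -0.23 to -0.019 without 1 library, where 0 to 151 genes and 0 to 1 members passed. For the difference between the knockouts 2 genes passed without the filter and 0 without the trend, and without 1 library 1 to 30 genes passed and the median was 0.11 to 0.38. For the AKT inhibitor 27 genes passed under median-ratio scaling, 69 without the filter, and 0 without the trend or with a pseudocount of 0.1; 1 member, Lipa, was lower under median-ratio scaling and without the filter; the members' median was -0.049 both with and without CXCL12. In P4, 4 members were past 2-fold higher with a pseudocount of 0.1. The causes were not tested.

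The labels do not say that a repeat number marks a shared mouse or batch, so pairing was not used. In the knockout table the differences between repeats 1 and 2 correlated at 0.06 to 0.14 between groups over all genes. Over members they correlated at 0.02 to 0.34, and all correlations were positive. Depth and the share of small noncoding RNA were higher in repeat 2 in each group of the knockout table. With a replicate block, 1 gene passed in the Cxcl12 knockout against 0 without it, and members stayed at 0 in both knockouts. Values near 1 to 3 reads, such as those of Atp6v0d2 and Ctsk in the CXCR4- library, cannot be sized at this depth, and no depth is known for P4.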
